A study of Homo sapiens with 6 samples.

Results

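Peroxisomes are small organelles that shorten very-long-chain and branched fatty acids, remove the hydrogen peroxide this releases, and carry out the first steps of ether lipid synthesis. Their enzymes are made in the cytosol and imported whole by a machinery of PEX proteins (peroxins), and in liver they also trim the side chain of bile acid precursors. The genes described here are 35 chosen by symbol for these tasks: 13 PEX genes, 14 matrix enzymes, 5 membrane proteins and 3 ether lipid enzymes. They were looked up in a table of 12396 named genes. Of the 35, 33 had a row and all 33 passed the filter on low counts. PEX11G, of the division factors, and FAR1, which makes the fatty alcohol for ether lipids, were not analysed here.

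RNA-seq was done on JHH-4, a human hepatocellular carcinoma line with epithelial-like shape. In the miR372_3p group (3 libraries) the cells overexpressed the microRNA hsa-miR-372-3p from a plasmid carrying its primary transcript; the Control group (3 libraries) is labelled wild type, and the labels do not say whether it received a plasmid. No time after transfection or selection of clones is given. The replicates are called technical in the series' design, so every p-value measures the spread between these libraries and not between independent cultures. CPT1A and ACSL4, which the study's title names, act in the mitochondrial import and the activation of fatty acids.

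Total counts over named genes ran from 51072581 to 60070397 in miR372_3p libraries and from 46851245 to 47890069 in Control libraries. Transcripts of the microRNA itself were not analysed here, so the overexpression was not checked directly. CPT1A fell 2.91-fold and ACSL4 fell 1.85-fold (edgeR adjusted p = 5.62e-08 and 6.89e-07). Control replicate 3 stood apart from the other 2 Control libraries on the second principal component (22.0 against -14.4 and -7.27). It touches the peroxisomal genes: it was the highest of the 3 Control libraries in 22 of the 33 (66.7%), against 37.8% of all genes. Of 10 hepatocyte markers only SERPINA1, which fell 5.09-fold, and FGB, which rose 1.74-fold, had a row; ALB, APOA1, APOB, AFP, TTR and HNF4A were among the 8 not analysed here. Both simple-epithelium markers with a row, KRT8 and KRT18, rose, with a summed level of 4675 to 4823 CPM (counts per 1000000 of the scaled library) in miR372_3p libraries and 2282 to 2382 CPM in Control libraries. Of 5 stromal markers 3 had a row, and their sum ran from 82.4 to 89.6 CPM in miR372_3p libraries and from 13.2 to 17.8 CPM in Control libraries, with COL1A1 and PDGFRB risen. Of 5 leukocyte markers 2 had a row, at 128 to 133 CPM in sum in miR372_3p libraries and 120 to 141 CPM in Control libraries, nearly all of it CD68; PTPRC, CD3E and the 4 endothelial markers had none. The part of these marker shifts in the results below was not tested.

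The peroxisomal genes moved in both directions and by small amounts. Of the 33 genes, 10 fell and 6 rose at an adjusted p under 0.05 in edgeR's quasi-likelihood test. ACOX2, the oxidase that starts the breakdown of branched fatty acids and bile acid precursors, fell 2.12-fold and was the only one of the 33 to change by 2-fold or more. AMACR, the racemase that prepares the same branched substrates, fell 1.90-fold. The largest rise was that of PEX5, the import receptor for most matrix enzymes, at 1.27-fold. These counts are close to those of the whole table: 48.5% of the 33 genes passed the test, against 54.5% of all genes, of which 26.8% rose and 27.7% fell. The median log2 fold change was -0.0685 for the 33 genes and 0.00125 for all genes, and the median absolute log2 fold change was 0.215 for the 33 and 0.217 for all. In such bulk RNA, fewer cells with a transcript and less of it per cell cannot be told apart. In 19 of the 33 genes (57.6%) the libraries of the groups did not overlap, against 62.2% of all genes.

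**Figure D1:**
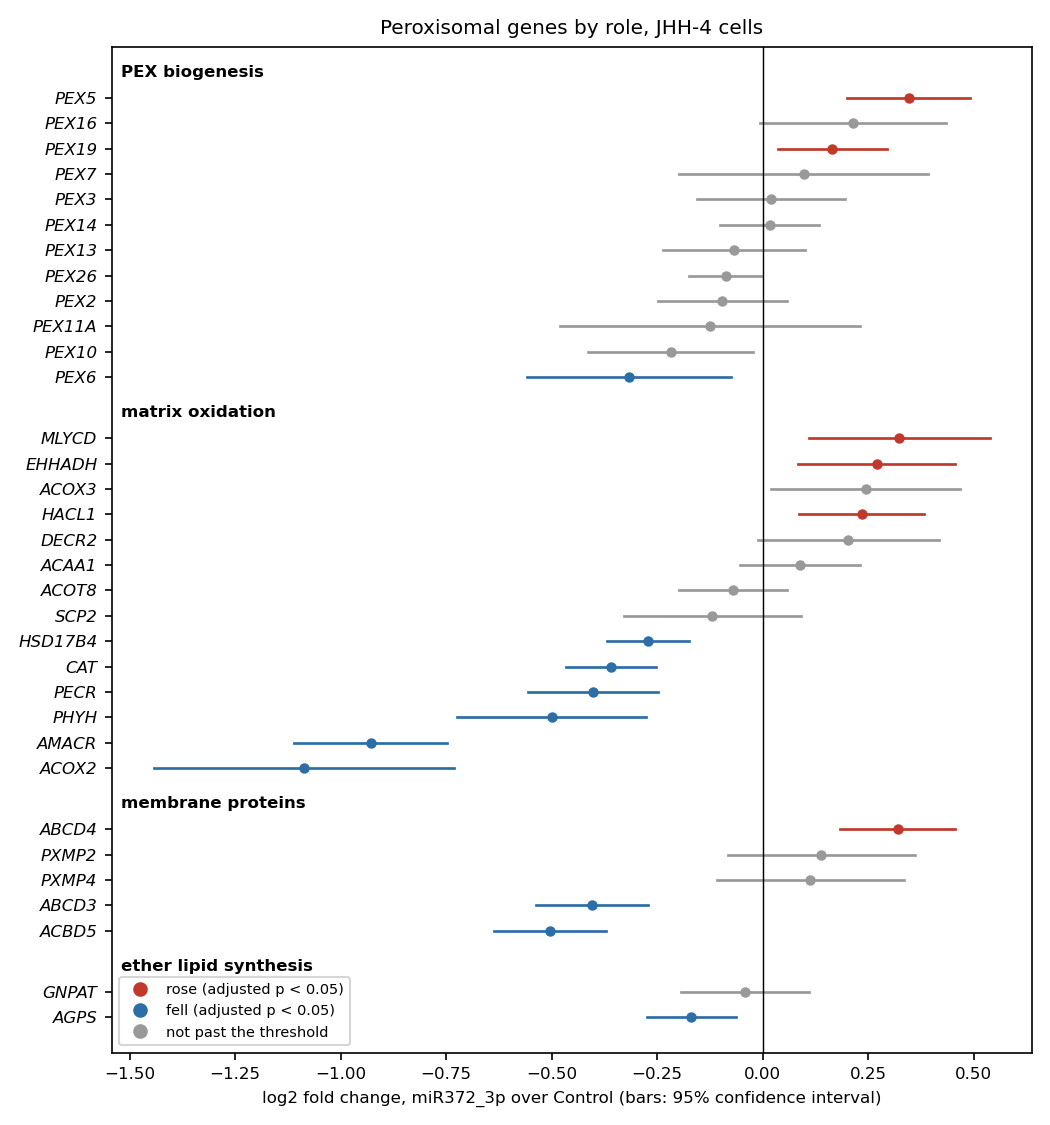
Log2 fold change of miR372_3p over Control (horizontal axis) for the 33 peroxisomal genes in 4 roles; points are edgeR estimates, bars 95% confidence intervals, and colour marks genes that rose, fell or did not pass an adjusted p of 0.05 (n = 3 libraries a group). PEX genes cluster around 0, between -0.32 and 0.35, while matrix enzymes spread from -1.09 for ACOX2 to 0.32 for MLYCD.

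The roles differed in how many of their genes passed, although the difference between roles was not tested. Over all genes 54.5% passed, 26.8% rose and 27.7% fell, with a median absolute change of 0.217. Of the 12 PEX genes, 2 rose and 1 fell (25.0% passed), with a median log2 fold change of -0.026. Of the 14 matrix enzymes, 3 rose and 6 fell (64.3% passed), with a median of -0.0947 and a median absolute change of 0.271, against 0.111 for the PEX genes. Of the 5 membrane proteins, 1 rose and 2 fell (60.0% passed), with a median of 0.112. Of the 2 ether lipid enzymes with a row, 1 fell. Apart from PEX5, which passed with any library left out, the PEX counts rest on genes near the threshold. The number that rose was 1 with any miR372_3p library or Control replicate 2 left out. The number that fell ran from 0 to 2 with a library left out. For matrix enzymes the number that rose was 1 without Control replicate 1, while the number that fell stayed between 6 and 7 with any library left out.

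A microRNA pairs through its seed, bases 2 to 8, with complementary stretches in messenger RNAs, mostly in 3′ UTRs. The mature miR-372-3p, from RefSeq (GRCh38.p14, chromosome 19, 53787931 to 53787953, plus strand), is shown with its seed in capitals, followed by the matches in AGPS, ACBD5 and MLYCD, which show the 8-base form and a match in a gene that fell and in one that rose, with the match in capitals:
hsa-miR-372-3p: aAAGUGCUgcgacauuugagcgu
AGPS, first site: tgagttcatgaatatgcacagaAGCACTTA
AGPS, second site: cctttgggaactacatgtgagtaAGCACTT
ACBD5: aagtcttattttatagtttgaaaAGCACTT
MLYCD: gaacgtgagttactgcctccttgAGCACTT

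The sites are transcript sequence from GENCODE 29 (GRCh38), each read 5′ to 3′ on the strand of its gene. They lie at chr2:177540540-177540569 and chr2:177543501-177543530 (AGPS, plus strand), chr10:27195385-27195414 (ACBD5, minus strand) and chr16:83924603-83924632 (MLYCD, plus strand). The match AGCACTT was sought in the longest annotated 3′ UTR of each gene, on the transcript strand, and AGCACTTA is the same match with an A after it, which lies opposite base 1 of the microRNA and does not pair with it. AGCACTT was present in 9 of the 33 genes (27.3%), against 25.5% of 12192 genes searched, and the 8-base form only in AGPS. The other 6 genes with the match were PECR, EHHADH, PXMP4, PEX13, PEX11A and PEX26. Whether these cells use the longest annotated 3′ UTR was not tested. In MLYCD the match lies at position 9137 of 11537 nt.

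Genes with a match were found among those that rose, those that fell and those that did not pass. Of the 9 genes with AGCACTT, 3 fell (ACBD5, PECR and AGPS) and 2 rose (MLYCD and EHHADH). Of the 24 genes without it, 7 fell and 4 rose, and these 7 include ACOX2 and AMACR, the genes that fell most. The 3′ UTR of ACOX2 is 88 nt long and that of AMACR 2915 nt, and neither held even the 6-base match GCACTT. Over all genes, 32.1% of the 3112 with AGCACTT fell and 26.2% rose, against 26.6% and 27.3% of the 9080 without it. With any annotated 3′ UTR in place of the longest, 10 of the 33 genes held AGCACTT, the added gene being ABCD3, which fell.

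**Figure D2:**
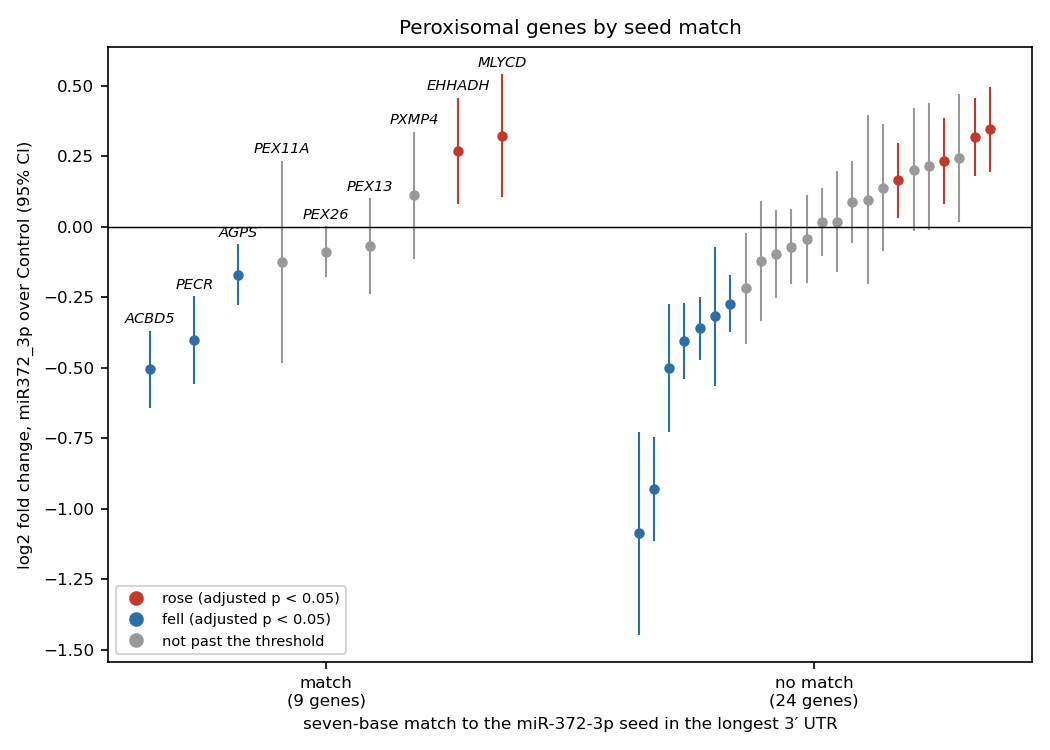
Log2 fold change of miR372_3p over Control (vertical axis, bars 95% confidence intervals, n = 3 libraries a group) for the 33 genes, grouped by whether the longest 3′ UTR held AGCACTT (9 genes) or not (24 genes). Genes that rose and genes that fell occur in both groups, and the 2 lowest points, ACOX2 and AMACR, are in the group without a match.

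Import begins with receptors that bind newly made matrix enzymes in the cytosol. PEX5, which reads the common C-terminal signal, had 65.4, 68.8 and 66.2 CPM in miR372_3p libraries, against 51.8, 48.2 and 57.7 CPM in Control libraries. All 3 miR372_3p libraries lay above all Control libraries, among which replicate 3 was highest. PEX5 rose by 0.35 ± 0.0649 (log2 fold change ± standard error, adjusted p = 0.0014), and it passed with any library left out (adjusted p up to 0.00779). PEX7, the receptor for the rarer N-terminal signal carried by enzymes such as PHYH and AGPS, had 8.74, 7.54 and 7.96 CPM in miR372_3p libraries, against 7.24, 6.50 and 8.92 CPM in Control libraries. These values overlapped, and the interval of the log2 difference, -0.20 to 0.39, includes the size of the change in PEX5.

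The loaded receptors dock at the membrane through PEX13 and PEX14, and neither passed the test. PEX13 had a log2 fold change of -0.0685 (95% confidence interval -0.24 to 0.10) and PEX14 of 0.0165 (-0.10 to 0.13). Receptors are then marked with ubiquitin by a RING complex that includes PEX2 and PEX10, and pulled out again with the help of the ATPase PEX6, which PEX26 anchors to the membrane. PEX6 had 7.34, 8.37 and 6.98 CPM in miR372_3p libraries, against 9.56, 8.69 and 9.99 CPM in Control libraries. The groups came close but did not overlap, and PEX6 fell by 0.32 ± 0.108 (adjusted p = 0.0305). That call was lost without miR372_3p replicate 1 or 3 or Control replicate 1 or 3 (adjusted p 0.076 to 0.106; 0.0186 to 0.106 over all alternatives).

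PEX10 had a log2 fold change of -0.22 ± 0.087 (adjusted p = 0.0569) and passed with DESeq2 (adjusted p = 0.0258) and without Control replicate 2 (adjusted p = 0.00464; 0.00464 to 0.158 over all alternatives). As 39.1% of the exon length of PEX10 overlaps RER1 on the opposite strand, a gene at 150 CPM in miR372_3p and 156 CPM in Control libraries, and as the kit does not mark strand, its count is uncertain. PEX2 (-0.0959) and PEX26 (-0.0876) did not pass, although all 3 miR372_3p libraries lay below all Control libraries for PEX26, at 83.0 to 85.1 CPM against 88.4 to 89.7 CPM. Other annotated genes overlap 14.2% of the exon length of PEX26.

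Membrane proteins reach peroxisomes by another route, in which PEX19 carries them and PEX3 and PEX16 receive them. PEX19 had 66.8, 68.5 and 67.9 CPM in miR372_3p libraries, against 62.2, 55.3 and 63.8 CPM in Control libraries. The groups did not overlap, and PEX19 rose by 0.17 ± 0.058 (adjusted p = 0.0339). The call was lost without any 1 of the 3 miR372_3p libraries or Control replicate 2, and with library size alone as the scale (adjusted p 0.0555 to 0.0917; 0.00764 to 0.0917 over all alternatives). The gene AL139011.2, on the same strand, overlaps 16.3% of the exon length of PEX19. PEX16 had a log2 fold change of 0.21 ± 0.099 (adjusted p = 0.0915) and passed only without Control replicate 3 (adjusted p = 0.00768; 0.00768 to 0.289 over all alternatives). PEX3 stood at 0.0189 ± 0.078 and PEX11A, which promotes division, at -0.124 ± 0.159 with 4.95 ± 0.255 CPM in miR372_3p and 5.39 ± 1.05 CPM in Control libraries (SD, n = 3 each).

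**Figure D3:**
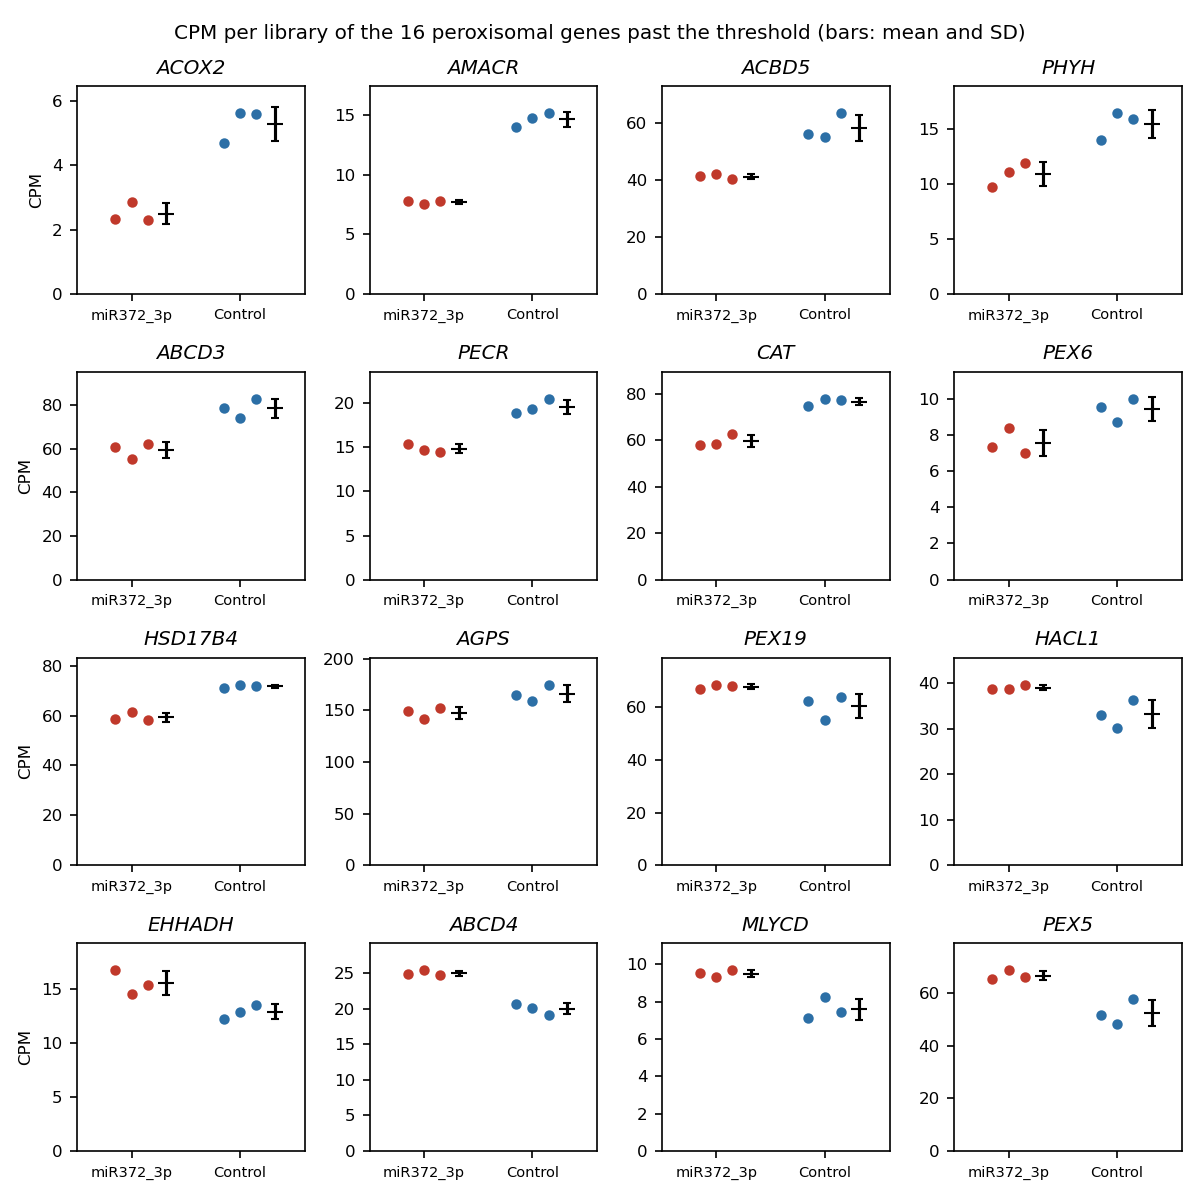
CPM per library (vertical axis, from 0) of the 16 peroxisomal genes that passed the test, with the 3 miR372_3p libraries on the left and the 3 Control libraries on the right of each panel; bars give the mean and SD. In all 16 panels the libraries of the groups do not overlap, with ACOX2 at 2.28 to 2.87 CPM in miR372_3p and 4.69 to 5.62 CPM in Control libraries.

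Matrix oxidation runs in a spiral: an acyl-CoA oxidase makes the double bond and hydrogen peroxide, a multifunctional enzyme adds water and oxidises, and a thiolase cuts off the shortened chain. The oxidase for branched substrates, ACOX2, had 140, 145 and 128 counts in miR372_3p libraries, against 220, 262 and 271 counts in Control libraries. This corresponds to 2.33, 2.87 and 2.28 CPM in miR372_3p libraries, against 4.69, 5.62 and 5.58 CPM in Control libraries. It has the lowest mean CPM of the 33 genes in both groups, although PEX11A was lower in Control replicates 2 and 3, and its highest miR372_3p library was still well below its lowest Control library. The log2 fold change was -1.09 ± 0.159 with a 95% confidence interval of -1.44 to -0.73 (adjusted p = 0.000299), and between -1.20 and -1.03 with any library left out. ACOX3, the second oxidase of branched chains, did not follow: it had 10.99, 11.97 and 10.99 CPM in miR372_3p libraries, against 9.07, 8.86 and 10.7 CPM in Control libraries. Its log2 fold change was 0.24 ± 0.0998 (adjusted p = 0.0622), and it rose only without Control replicate 3 (adjusted p = 0.0146; 0.0146 to 0.169 over all alternatives).

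The multifunctional enzymes went opposite ways. HSD17B4, which handles branched chains and bile acid precursors as well as very-long chains, had 58.7, 61.5 and 58.1 CPM in miR372_3p libraries, against 71.0, 72.4 and 71.8 CPM in Control libraries. The groups were far apart relative to their spread, and HSD17B4 fell by 0.27 ± 0.044 (adjusted p = 0.000537). EHHADH, which serves straight chains and dicarboxylic acids, had 16.7, 14.5 and 15.4 CPM in miR372_3p libraries, against 12.2, 12.9 and 13.6 CPM in Control libraries. It rose by 0.27 ± 0.083 (adjusted p = 0.0195), a call lost without miR372_3p replicate 1 or Control replicate 1 (adjusted p 0.0974 and 0.0725; 0.0127 to 0.0974 over all alternatives).

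Neither thiolase passed the test. ACAA1, which acts on straight chains, had a log2 fold change of 0.0883 (95% confidence interval -0.05 to 0.23). Other annotated genes overlap 21.2% of the exon length of ACAA1. SCP2, whose long form is the thiolase for branched chains, had 43.5, 38.3 and 44.6 CPM in miR372_3p libraries, against 46.0, 39.5 and 51.8 CPM in Control libraries. These overlapped widely, the log2 fold change was -0.12 ± 0.094, and SCP2 fell only without Control replicate 2 (adjusted p = 0.0386; 0.0386 to 0.828 over all alternatives). Gene counts do not separate the long form from the short lipid transfer protein made from the same gene. Other annotated genes overlap 20.7% of the exon length of SCP2.

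Branched fatty acids need preparation before this spiral. AMACR, which turns the methyl group to the form that ACOX2 accepts, had 7.788, 7.498 and 7.78 CPM in miR372_3p libraries, against 14.0, 14.8 and 15.2 CPM in Control libraries. Replicates lay close together in both groups, and AMACR fell by 0.93 ± 0.081 (adjusted p = 9.74e-06), between 0.90 and 0.96 with any library left out. Other annotated genes overlap 64.8% of the exon length of AMACR, 55.0% of it by the read-through gene C1QTNF3-AMACR on the same strand, so reads of that transcript would be counted here or dropped. PHYH, which starts the alpha-oxidation of phytanic acid, had 9.74, 11.1 and 11.9 CPM in miR372_3p libraries, against 14.0, 16.4 and 15.9 CPM in Control libraries. The spread was wider than for AMACR but the groups stayed apart, and PHYH fell by 0.50 ± 0.0998 (adjusted p = 0.00202).

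HACL1, the lyase that follows PHYH in alpha-oxidation, moved the other way. It had 38.7, 38.7 and 39.7 CPM in miR372_3p libraries, against 33.1, 30.1 and 36.3 CPM in Control libraries, and rose by 0.23 ± 0.066 (adjusted p = 0.0131). With any library left out HACL1 kept passing, at an adjusted p of up to 0.0471. The neighbouring gene BTD, on the opposite strand, overlaps 15.4% of its exon length and itself fell (log2 fold change -0.69, adjusted p = 0.000637).

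The auxiliary enzymes were also split. PECR, a reductase of unsaturated acyl-CoA, had 15.4, 14.7 and 14.4 CPM in miR372_3p libraries, against 18.9, 19.4 and 20.5 CPM in Control libraries, and fell by 0.40 ± 0.068 (adjusted p = 0.000769). DECR2, the peroxisomal dienoyl-CoA reductase, had a log2 fold change of 0.20 ± 0.095 and did not pass (adjusted p = 0.097); NME4, which rose, overlaps 14.1% of its exon length. ACOT8, a thioesterase that releases free acids, had a log2 fold change of -0.0698 (95% confidence interval -0.20 to 0.06), with 35.3% of its exon length overlapped by SNX21 on the opposite strand. MLYCD, malonyl-CoA decarboxylase, which also works in mitochondria and cytosol, had 9.51, 9.32 and 9.67 CPM in miR372_3p libraries, against 7.11, 8.22 and 7.43 CPM in Control libraries. MLYCD rose by 0.32 ± 0.096 (adjusted p = 0.0165), and the call was lost without miR372_3p replicate 3 or Control replicate 1 (adjusted p 0.053 and 0.0684; 0.0098 to 0.0684 over all alternatives).

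Catalase, which breaks down the hydrogen peroxide made by the oxidases, fell. CAT had 58.1, 58.4 and 62.9 CPM in miR372_3p libraries, against 75.1, 78.0 and 77.4 CPM in Control libraries. All miR372_3p libraries were lower, the log2 fold change was -0.36 ± 0.048 (adjusted p = 0.000159), and it stayed between -0.40 and -0.34 with any library left out.

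Among the membrane proteins, ACBD5 fell most. ACBD5 binds very-long-chain acyl-CoA and tethers peroxisomes to the endoplasmic reticulum through VAPA and VAPB. It had 41.2, 41.8 and 40.1 CPM in miR372_3p libraries, against 56.2, 55.1 and 63.4 CPM in Control libraries. The miR372_3p libraries were tightly grouped, and ACBD5 fell by 0.51 ± 0.059 (adjusted p = 7.13e-05). Of its partners, which were measured as other genes of the pathway, VAPA fell by 0.28 ± 0.034 and VAPB rose by 0.29 ± 0.040 (adjusted p = 0.000102 and 0.000187).

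The ABC transporter genes moved in opposite directions. ABCD3, which brings branched acyl-CoA, dicarboxylic acids and bile acid precursors into peroxisomes, had 60.6, 55.4 and 62.0 CPM in miR372_3p libraries, against 78.8, 74.1 and 82.8 CPM in Control libraries. It fell by 0.40 ± 0.059 (adjusted p = 0.000299). ABCD4, once counted as peroxisomal and now known as a lysosomal cobalamin transporter, had 24.9, 25.4 and 24.7 CPM in miR372_3p libraries, against 20.7, 20.2 and 19.1 CPM in Control libraries, and rose by 0.32 ± 0.061 (adjusted p = 0.00148). PXMP2, a channel of the peroxisomal membrane, had 29.6 to 32.3 CPM in miR372_3p libraries and 24.7 to 33.2 CPM in Control libraries. It rose only without Control replicate 3, its highest Control library (adjusted p = 0.00458; 0.00458 to 0.606 over all alternatives). The gene AC135586.2, on the same strand, overlaps 29.1% of the exon length of PXMP2. PXMP4, a peroxisomal membrane protein, had a log2 fold change of 0.11 ± 0.099 and did not pass.

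Ether lipid synthesis starts inside peroxisomes, where GNPAT acylates dihydroxyacetone phosphate and AGPS exchanges the acyl chain for a fatty alcohol. GNPAT had 87.3, 84.4 and 89.6 CPM in miR372_3p libraries, against 91.7, 80.0 and 97.5 CPM in Control libraries. The Control libraries enclosed the miR372_3p libraries on both sides, and the log2 fold change was -0.0426 (95% confidence interval -0.19 to 0.11). AGPS, whose 3′ UTR carries the 8-base match shown above at position 2367 of 5641 nt, had 150, 141 and 152 CPM in miR372_3p libraries, against 164, 159 and 175 CPM in Control libraries. The groups did not overlap, and AGPS fell by 0.17 ± 0.047, or 1.12-fold (adjusted p = 0.012, and up to 0.0463 with a library left out).

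Levels of different genes can be compared per length with the deposited FPKM values. In the miR372_3p libraries GNPAT (31.0 ± 0.848 FPKM), PXMP2 (29.3 ± 1.92) and CAT (23.4 ± 1.03) were the highest of the 33 genes (SD, n = 3). The same 3 led in the Control libraries, as GNPAT (30.8 ± 3.13 FPKM), CAT (29.8 ± 0.585) and PXMP2 (26.6 ± 4.37), where these neighbours did not differ beyond their spread. PEX5 was in place 4 of 33 by its mean in miR372_3p libraries (22.6 ± 0.403 FPKM), against place 9 in Control libraries (16.9 ± 2.26 FPKM). ABCD3 was in place 13 by its mean in miR372_3p libraries (15.1 ± 1.03 FPKM), against place 6 in Control libraries (19.9 ± 1.27 FPKM). In each group the libraries of PEX5 and of ABCD3 overlapped those of a gene next to them in this order, so these places are not fixed beyond the spread. The lowest genes by FPKM in Control libraries were MLYCD (0.516 ± 0.035 FPKM), PEX11A (1.85 ± 0.266) and ACOX2 (1.94 ± 0.199). By mean CPM in Control libraries MLYCD (7.59) lay above PEX11A (5.39) and ACOX2 (5.30). Places by FPKM depend on the length used, which was not checked in these cells. The annotated exons of MLYCD total 16161 bases. ACOX2 fell to 0.911 ± 0.110 FPKM in miR372_3p libraries, against its 1.94 FPKM in Control. The log2 ratio of mean FPKM was within 0.2 of the log2 fold change of the counts in all 33 genes, a tolerance close to their median absolute change. It had the opposite sign in 4 of them (PEX2, PEX11A, SCP2 and GNPAT), none of which passed the test, and for AMACR it was -0.76 by FPKM against -0.93 by counts.

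**Figure D4:**
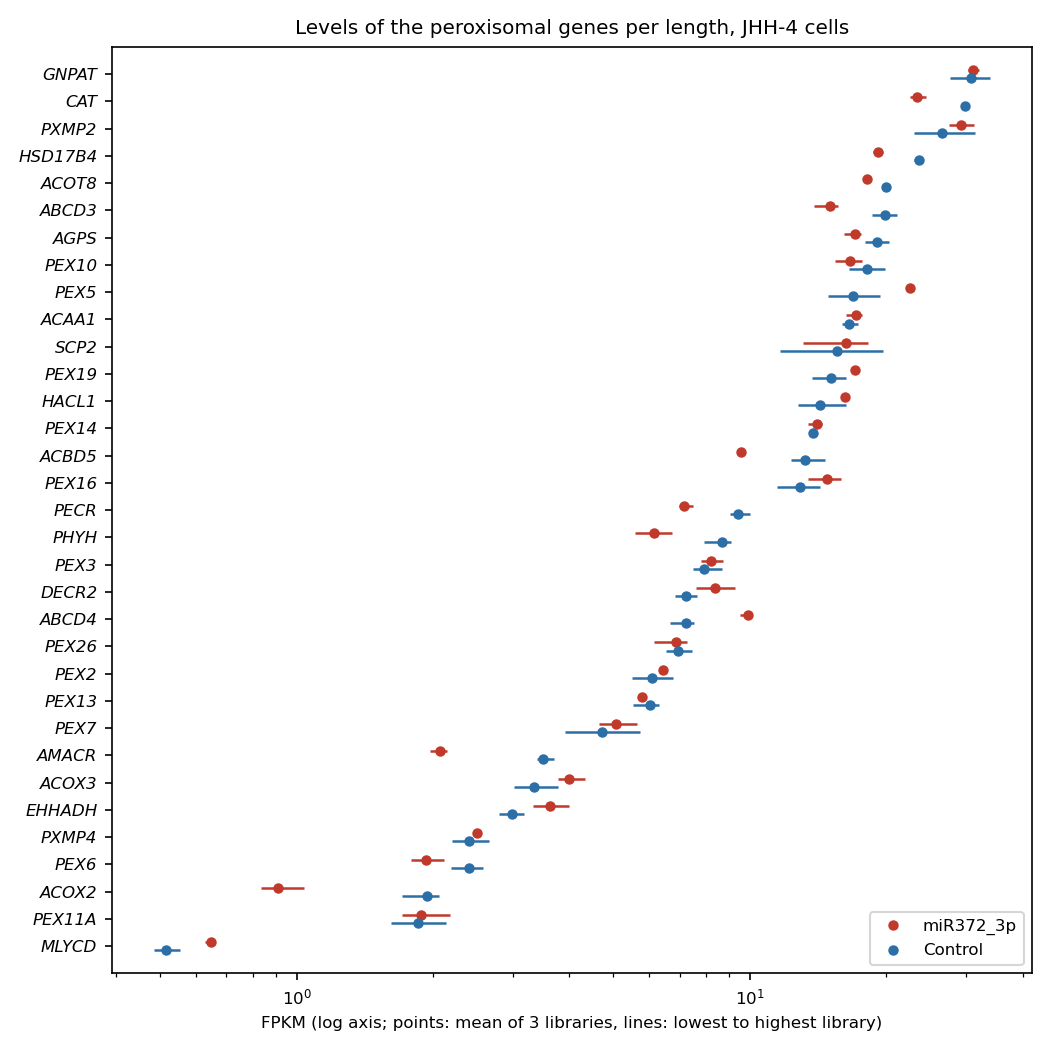
Deposited FPKM (horizontal log axis) of the 33 peroxisomal genes, ordered by their mean in Control; points are means of 3 libraries and lines run from the lowest to the highest library, with miR372_3p drawn above Control. The genes span from 0.516 FPKM for MLYCD to 30.8 FPKM for GNPAT in Control, and the widest gaps between groups are those of ACOX2 and AMACR.

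Other genes of the organelle were taken from 6 lists of 56 genes, 49 of which had a row. Of these 49, 20 fell and 5 rose (51.0% passed), with a median log2 fold change of -0.132. Over all genes 54.5% passed, 27.7% fell and 26.8% rose, and the difference in direction was not tested. Among 12 further genes of peroxisomal fatty acid oxidation and transport, 5 fell and 0 rose (41.7% passed). CROT, which makes medium-chain acylcarnitines for export, had 4.25, 4.39 and 5.19 CPM in miR372_3p libraries, against 12.4, 11.7 and 14.8 CPM in Control libraries, and fell 2.82-fold (adjusted p = 7.96e-06). SLC27A2, a very-long-chain acyl-CoA synthetase, fell 1.57-fold (adjusted p = 0.00999) and the tether ACBD4 1.54-fold (adjusted p = 0.000141).

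Of 15 other matrix and membrane enzymes, 7 fell and 1 rose (53.3% passed, against 54.5% of all genes). GSTK1, a glutathione transferase of peroxisomes and mitochondria, fell 1.54-fold (adjusted p = 1.12e-05), and MVK, mevalonate kinase, fell 1.34-fold (adjusted p = 0.00037). Of 7 genes of fission, turnover and contact, 4 fell and 1 rose (71.4% passed). Among 4 regulators, PPARA, the nuclear receptor that switches on many peroxisomal oxidation genes in liver, fell 1.41-fold by counts (adjusted p = 0.000912), while its FPKM overlapped at 0.9725 to 1.111 in miR372_3p libraries and 1.108 to 1.378 in Control libraries (log2 ratio of means -0.22), and its partner RXRA rose 1.32-fold (adjusted p = 0.00535).

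In the later steps of ether lipid synthesis and turnover, 2 of 8 genes fell and 1 rose (37.5% passed, against 54.5% of all genes). TMEM86A, which codes for a lysoplasmalogenase that cleaves vinyl ether lipids, had 2.60, 2.81 and 3.50 CPM in miR372_3p libraries, against 9.63, 10.0 and 9.21 CPM in Control libraries. It fell 3.24-fold (adjusted p = 5.86e-06), further than any of the 33 genes. CHPT1, a choline phosphotransferase that completes choline phospholipids, fell 1.35-fold (adjusted p = 0.000539). PEDS1, listed in the table as TMEM189, makes the vinyl ether bond of plasmalogens and rose 1.33-fold (adjusted p = 0.00146); its count is uncertain because a read-through transcript joins it to UBE2V1. The 8-base matches to miR-372-3p of TMEM86A (chr11:18704674-18704703, plus strand) and of TMEM189 (chr20:50121537-50121566, minus strand) are shown because both genes hold AGCACTTA and changed in opposite directions. Over all genes searched, 494 of 12192 (4.05%) held AGCACTTA. Of the 49 other genes, 4 held AGCACTTA, of which 2 fell (TMEM86A and CROT, which holds it at 2 places), 1 rose and 1 did not pass:
TMEM86A: gggcaagagctgccatttatctAGCACTTA
TMEM189: aaaatgctacttaatattactgAGCACTTA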

How the data were processed

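The deposited table gives, per the file headers, whole-number read counts and FPKM for each of 6 libraries, with the authors' p-value and log2 fold change of miR372_3p against Control. Per the submitters' processing notes, the tools were StringTie 2.2.1, HISAT2 2.0.4 and DESeq2 1.38.3 on GRCh38; for the way reads were counted and the annotation release, nothing is given in the sources used here. Per the labels' protocols, libraries were made from 1 µg of total RNA; the kit, NEBNext Ultra RNA, keeps no strand information. The deposited counts were not normalized; the deposited FPKM values were scaled by the authors to length and depth and used for levels between genes and, beside the counts, for ratios between groups. The authors' deposited log2 fold changes differed from those here by at most 0.00228 in the 33 genes, and the authors' deposited table has a p-value under 0.05, with no adjustment stated in the header, for 19 of them. Columns were matched to samples by title, and 0 could not be matched.

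Of 14006 rows, 12396 with an Ensembl ID were tested and 1610 unnamed loci (2.64 to 2.74% of counts in miR372_3p, 2.88 to 3.63% in Control) were left out. No named row had under 208 counts over the 6 libraries, and filterByExpr removed 0. The 2 groups were compared in R 4.3.3 by the quasi-likelihood F-test of edgeR 4.0.16 on TMM-scaled libraries without a block, and p-values were adjusted by Benjamini-Hochberg over all 12396 genes at a threshold of 0.05. Standard errors and 95% intervals come from that fit. CPM are per 1000000 of the TMM-scaled library. The fit was tested on simulated data. No library pair of a group was alike within sampling noise: chi-square divided by its degrees of freedom was 6.86 to 38.6. Alternatives were DESeq2 1.42.0, other scaling factors and filters, unnamed loci kept, a replicate block, and each library left out.

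The genes, roles, other lists and markers were chosen with earlier results of these data known. Values per library are given for up to 12 genes past the threshold in order of change, for PEX5, PEX7, GNPAT and AGPS, and for other genes chosen after their values were seen; up to 8 other pathway genes are named by size of change, the rest after their values were seen. Seed matches were sought in the longest 3′ UTR (at least 50 nt) of protein-coding transcripts in GENCODE 29. Targeting signals in the proteins, a planned description, were not analysed here, and some genes and sequences are not reported here.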

Additional observations from a re-analysis of the deposited data

How the results depend on the processing

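Of the 33 genes, 10 fell and 6 rose; with a library left out, 9 to 12 fell and 4 to 9 rose (over all genes 2961 to 3553 fell and 2800 to 3546 rose). The median over the 33 genes ran from -0.0882 to -0.0216. For PEX genes the number that rose ran from 1 to 3 and the number that fell from 0 to 2, with a median of -0.0439 to 0.0165; with library size alone as the scale 1 rose, and with DESeq2 2 fell. For matrix enzymes 1 to 4 rose and 6 to 7 fell, with a median of -0.151 to -0.0372. For membrane proteins 1 to 2 rose and 2 fell, with a median of 0.0157 to 0.21; for ether lipid enzymes 0 rose and 1 fell, with a median of -0.155 to -0.0556. The median of all genes was -0.00288 to 0.00482 with a library left out, -0.00678 with library size alone, -0.000348 with a minimum mean of 5 CPM, 0.00588 with unnamed loci kept and 0.00298 with the replicate block. Log2 fold changes that changed sign belonged to genes that did not pass: PEX14 (-0.0122 to 0.0493), PEX3 (-0.0154 to 0.0849), PEX11A (-0.26 to 0.0129) and GNPAT (-0.114 to 0.0205), each with a library left out.

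Same-numbered libraries deviated together at correlations of -0.136, -0.0517 and 0.103, so the numbers do not pair them. With the replicate block, 6 of the 33 genes rose and 10 fell, PEX6 no longer passed (adjusted p = 0.052) and PEX10 did (adjusted p = 0.031). ACOX2 is not tested with the minimum of 5 CPM. The number of genes with AGCACTT was 9, or 10 with any annotated 3′ UTR. The cause of these differences was not tested. PEX11A and ACOX2, the genes of lowest counts, have the widest intervals.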

Other observations

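BAAT, which joins bile acids to glycine or taurine, had 43.9, 41.3 and 42.1 CPM in miR372_3p libraries and 42.5, 45.3 and 41.0 CPM in Control libraries. It did not pass the test.

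The spread between libraries was unequal. The median coefficient of variation of the 33 genes was 4.23% in miR372_3p and 7.5% in Control libraries, against 4.31% and 5.93% over all genes.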
